A study of Mus musculus with 16 samples.

Results

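*Ccnd1*, *Ccnd2* and *Ccnd3* encode the D-type cyclins, and *Cdk4* and *Cdk6* encode the kinases that these cyclins activate. The 5 genes were found by their symbols among the 26411 genes of the count data, and all 5 were among the 15679 genes with enough counts to be tested. They were chosen because *Ccnd2* mRNA was already known, from these embryos, to be lower in both genotypes that carry the *Kat6b* transgene. *Ccnd2* differences between transgenic and non-transgenic embryos are therefore described here without a test. The other members, and *Ccnd2* between genotypes that share their transgene status, were tested.

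D-type cyclins rise in response to growth factors and patterning signals. Bound to CDK4 or CDK6 they start the phosphorylation of the retinoblastoma protein and its relatives, which releases E2F transcription factors to switch on genes for DNA replication. CDK inhibitors of the INK4 family block the kinases directly. The 3 cyclins are expressed in overlapping patterns in the embryo, and each can replace the others in many cell types.

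The samples were 16 whole mouse embryos at embryonic day 9.5, in 4 genotypes of 4 embryos each, with 2 females and 2 males per genotype. Wild-type embryos were *Kat6a+/+ Kat6b+/+*. *Kat6a-/- Kat6b+/+* embryos, called null below, were homozygous for a *Kat6a* allele that lacks several coding exons. *Kat6a+/+ Tg(Kat6b)* embryos, called Tg-only below, carried a multi-copy insertion of a bacterial artificial chromosome clone with the whole *Kat6b* gene, descended from a germline founder, and *Kat6a-/- Tg(Kat6b)* embryos, called null-Tg below, carried both alterations. KAT6A and KAT6B are related acetyltransferases that modify histones. All were hybrids of the FVB and BALB/c strains. The wild-type embryos came from litters 801, 803, 2597 and 2598, 1 from each. The null embryos came from litters 801 and 803, and the Tg-only embryos from litters 2597 and 2598. The null-Tg embryos came from litters 483 and 498, which held no other genotype here, so for them litter and genotype cannot be told apart. Counts per embryo summed to between 14407277 and 45665680. Levels are given as CPM, counts relative to the library size after TMM scaling, and levels of different genes are compared as RPKM, which also divides by gene length. *Kat6b* was at 46.2 ± 2.45 CPM in wild-type and 49.1 ± 2.03 CPM in null embryos, but at 192 ± 29.7 CPM in Tg-only and 197 ± 4.92 CPM in null-Tg embryos (SD, n = 4 each). *Kat6a* counts over the whole gene, at 199 ± 16.5 CPM in wild-type and 202 ± 15.2 CPM in null embryos, do not check the loss of exons. The genomic positions below are those of GRCm39.

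In wild-type embryos *Cdk4* was by far the most abundant member per length, at 582 ± 16.7 RPKM (SD, n = 4), the rank 64 of the 15679 tested genes. *Ccnd2* followed at 133.6 ± 2.497 RPKM, *Ccnd3* at 81.5 ± 3.06 RPKM and *Ccnd1* at 51.7 ± 1.86 RPKM. *Cdk6* was at 4.38 ± 0.358 RPKM, rank 9380 of the tested genes. No neighbours in this order overlapped in any of the 4 genotypes. The order of *Ccnd3* above *Ccnd1* rests on their listed lengths of 2261 and 3768 bases. Their annotated exon bases, 9245 and 4783, are in the opposite order. Before division by length, wild-type embryos had 184 ± 6.91 CPM of *Ccnd3* and 195 ± 7.01 CPM of *Ccnd1*. The ratio of *Cdk4* to *Cdk6* was 133 ± 8.12 in wild-type, 123 ± 14.97 in null, 175 ± 27.5 in Tg-only and 138 ± 8.69 in null-Tg embryos. Over all 16 embryos the coefficient of variation of CPM was 3.15% for *Ccnd3*, 3.92% for *Cdk4*, 5.28% for *Ccnd1*, 9.10% for *Ccnd2* and 14.5% for *Cdk6*. Of all tested genes, 3.18% varied less than *Ccnd3* and 67.0% varied less than *Cdk6*.

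**Figure D1:**
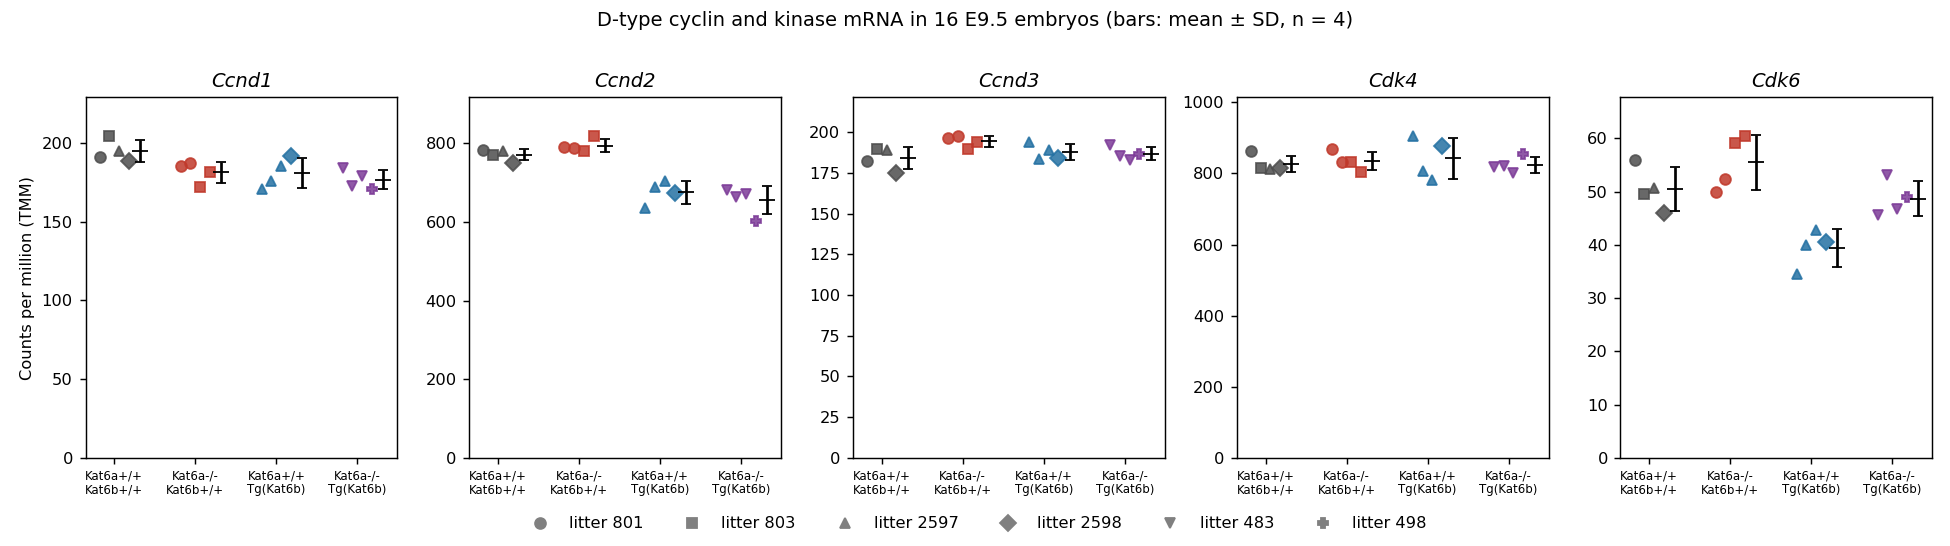
CPM (y axis, from 0) of the 5 genes in each of the 16 embryos by genotype (x axis), with the litter given by the symbol and the mean ± SD of 4 embryos beside the points. *Ccnd2* lay between 751 and 819 CPM in the 8 embryos without the transgene and between 604 and 703 CPM in the 8 with it, and *Cdk6* was lowest in the 4 Tg-only embryos.

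*Ccnd2* (Entrez Gene 12444) lies on the minus strand of chromosome 6 from 127102125 to 127129156 and has a listed length of 5772 bases. Cyclin D2 is a target of Myc proteins and of growth factor signalling, and it is prominent in neural progenitors. The 4 wild-type embryos had 782, 770, 781 and 751 CPM of *Ccnd2* mRNA. The 4 null embryos had 790, 788, 781 and 819 CPM. The 4 Tg-only embryos had 635, 689, 703 and 673 CPM. The 4 null-Tg embryos had 682, 663, 672 and 604 CPM. Every embryo with the transgene was below every embryo without it, whatever its *Kat6a* genotype. In whole embryos, fewer cells of a type and less mRNA per cell cannot be told apart. The mean was 783 ± 19.0 CPM (SD, n = 8) without and 665 ± 31.9 CPM (SD, n = 8) with the transgene, 15.03% lower, and a gap of 47.8 CPM separated the highest transgenic from the lowest non-transgenic embryo.

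The fitted log2 difference of *Ccnd2* was -0.20 in Tg-only vs. wild-type embryos, -0.22 in null-Tg vs. wild-type embryos and -0.27 in null-Tg vs. null embryos. These are the values that chose the gene and carry no test. Since no transgenic embryo overlapped the others, a split by sex or litter had to give the same sign, and its values only describe the sizes. Females with the transgene had between 604 and 689 CPM and females without it between 751 and 790 CPM. Males with the transgene had between 635 and 703 CPM and males without it between 770 and 819 CPM. In litter 2597 the wild-type embryo had 781 CPM and the 3 Tg-only embryos had a mean of 676 CPM, a log2 difference of -0.21. In litter 2598 the values were 751 CPM and 673 CPM in 1 embryo each, a log2 difference of -0.16.

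*Ccnd2* did not differ detectably between *Kat6a* genotypes. Without the transgene, the null embryos were at 795 ± 16.6 CPM and the wild-type embryos at 771 ± 14.4 CPM (SD, n = 4 each), and these groups overlapped. The log2 difference was 0.046 with a 95% confidence interval from -0.03 to 0.12 (edgeR FDR = 0.574). With the transgene, null-Tg embryos were at 655 ± 35.3 CPM and Tg-only embryos at 675 ± 29.4 CPM. That log2 difference was -0.02 with an interval from -0.10 to 0.06 (edgeR FDR = 0.793). With the gene length trend of each library removed, as described below for *Cdk6*, it was -0.08 (edgeR FDR = 0.216), and null-Tg embryos, from 603 to 669 CPM, then lay below Tg-only embryos, from 680 to 692 CPM. As counted these groups overlapped, while 10.5% of all genes did not. The share of all genes without overlap after the removal is not given, so this separation has no background. Without the removal the intervals together run from a change of -6.93% to 8.53%.

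*Ccnd3* (Entrez Gene 12445; chromosome 17, 47815767 to 47910624, plus strand), best known for its roles in blood cells and muscle, was the steadiest member. Its levels ranged from 175 to 190 CPM in wild-type, 190 to 198 CPM in null, 184 to 194 CPM in Tg-only and 183 to 192 CPM in null-Tg embryos, so all genotypes overlapped, null and wild-type embryos only narrowly. In null vs. wild-type embryos the log2 difference was 0.08 (95% confidence interval 0.009 to 0.14; edgeR FDR = 0.256, unadjusted p = 0.0276). No *Ccnd3* difference passed the threshold, and their edgeR FDR values lay between 0.220 and 0.954. The intervals of the 5 pairwise differences run from -9.14% to 10.5%.

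*Ccnd1* (Entrez Gene 12443; chromosome 7, 144483668 to 144493662, minus strand) encodes the cyclin most tied to mitogen and Wnt signalling. The wild-type embryos had 191, 204, 195 and 189 CPM. The null embryos had 185, 187, 172 and 182 CPM. The Tg-only embryos had 171, 176, 186 and 192 CPM, and the null-Tg embryos had 184, 173, 179 and 171 CPM. The wild-type mean was the highest, and the wild-type values did not overlap those of either genotype with the null allele. The log2 difference from wild type was -0.10 (SE 0.0414) in null embryos, with edgeR FDR = 0.232. It was -0.11 (SE 0.0419) in Tg-only embryos, with edgeR FDR = 0.304. It was -0.14 (SE 0.0433) in null-Tg embryos, with edgeR FDR = 0.158. These 3 comparisons share the wild-type embryos, and none passed the threshold. Without wild-type replicate 2, the highest embryo, they were -0.063, -0.071 and -0.086, and without Tg-only replicate 1 the Tg-only difference was -0.063. Within litters the difference of null from wild-type embryos was -0.04 on the log2 scale in litter 801 and -0.21 in litter 803. Litter 801 set 2 null females against a wild-type male, whereas the litter 803 embryos were all male, so litter and sex cannot be told apart among null embryos. In 48.4% of its annotated exon bases *Ccnd1* overlaps exons of *LTO1* on the opposite strand, and the strand setting of the counting is not given in the sources used here. *LTO1* was counted at no more than 26.5 CPM in any embryo.

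The D-type cyclins together amounted to 267 ± 6.46 RPKM in wild-type, 272 ± 4.84 RPKM in null, 248 ± 5.61 RPKM in Tg-only and 243 ± 8.18 RPKM in null-Tg embryos (SD, n = 4 each). *Ccnd2*, whose level chose the genes, is the largest part of this sum. It made up 50.1 ± 0.732% of the D-type cyclin mRNA per length in wild-type embryos and 50.7 ± 0.730% in null embryos. It made up 47.1 ± 1.18% in Tg-only and 46.7 ± 1.15% in null-Tg embryos. *Ccnd2* thus remained the most abundant D-type cyclin mRNA per listed length in all 16 embryos. By the same lengths *Ccnd3* was between 30.1% and 35.6% and *Ccnd1* between 17.2% and 20.5%. In null embryos the share of *Ccnd1*, at 17.7 ± 0.443%, lay below its share in every embryo of the other genotypes. Against the transgenic embryos this is no separate finding, since the lower *Ccnd2* that chose the genes shrinks the sum there. *Ccnd1* itself was at 181 CPM in null, 181 CPM in Tg-only and 177 CPM in null-Tg embryos. As a ratio within each embryo, *Ccnd1* per *Ccnd3* was 0.635 ± 0.0132 in wild-type, 0.560 ± 0.0112 in null, 0.579 ± 0.0408 in Tg-only and 0.568 ± 0.0169 in null-Tg embryos.

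**Figure D2:**
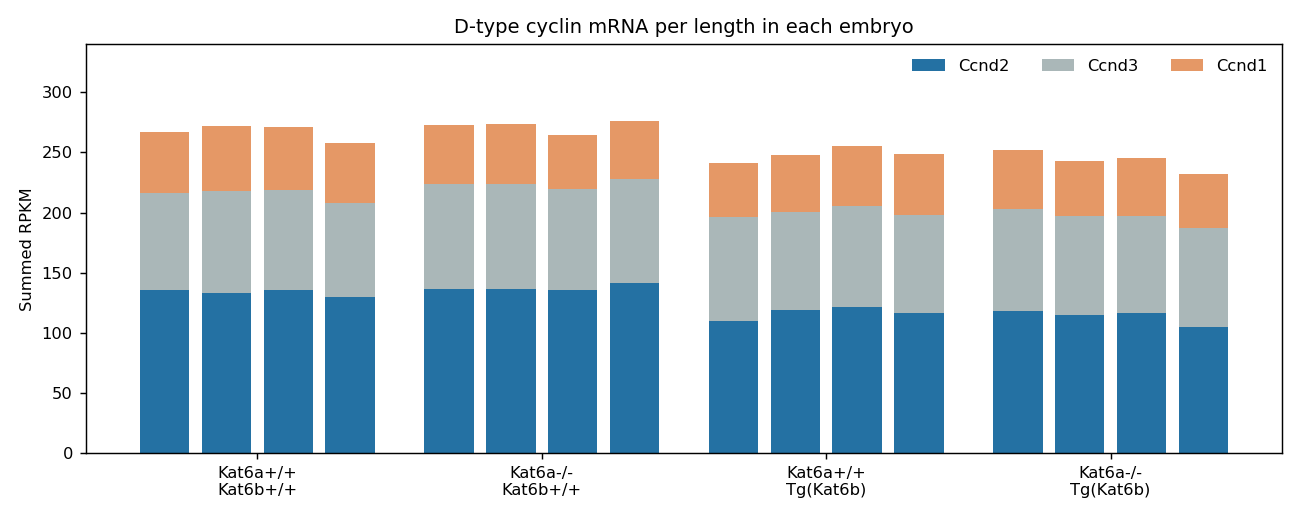
Summed RPKM of *Ccnd2*, *Ccnd3* and *Ccnd1* (y axis, from 0) in each of the 16 embryos, grouped by genotype (x axis), with 1 stacked bar per embryo and replicates 1 to 4 from left to right. The *Ccnd2* part was between 45.0% and 51.4% of the bar, and the bars of the transgenic embryos were lower, from 232 to 255 RPKM against 258 to 276 RPKM.

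*Cdk4* (Entrez Gene 12567; chromosome 10, 126895180 to 126903789, plus strand) is a known target of Myc proteins, which bind the E-box CACGTG. The 250 bases before its start are shown because they hold 4 such motifs, and the *Cdk6* window is shown for comparison. The windows are taken from RefSeq's table for GRCm38.p6, on the plus strand, 5′ to 3′, at chr10:127063285-127063534 for *Cdk4* and chr5:3343643-3343892 for *Cdk6*. CACGTG, which reads the same on both strands, is in capitals.
Cdk4: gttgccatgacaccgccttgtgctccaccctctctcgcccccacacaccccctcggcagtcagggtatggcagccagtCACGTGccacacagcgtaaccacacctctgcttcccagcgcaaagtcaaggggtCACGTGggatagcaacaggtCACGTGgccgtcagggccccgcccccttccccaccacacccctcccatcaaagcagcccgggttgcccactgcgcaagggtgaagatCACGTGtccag
Cdk6: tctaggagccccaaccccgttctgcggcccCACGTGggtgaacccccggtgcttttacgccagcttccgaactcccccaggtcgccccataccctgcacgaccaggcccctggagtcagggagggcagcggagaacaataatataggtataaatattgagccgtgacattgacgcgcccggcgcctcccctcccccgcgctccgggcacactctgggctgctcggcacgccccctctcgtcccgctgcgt
At least 1 CACGTG stood in 6.02% of all 32851 windows of this length in the table, and at least 4 in 0.0213%. The table also holds *Ccnd3*, whose 2 windows have no CACGTG.

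*Cdk4* did not differ detectably between the genotypes. Its levels ranged from 812 to 862 CPM in wild-type, 805 to 868 CPM in null, 781 to 905 CPM in Tg-only and 801 to 853 CPM in null-Tg embryos. The 5 pairwise log2 differences lay between -0.06 and 0.03, with edgeR FDR values from 0.451 to 0.932 and intervals running from -9.61% to 8.08%. Its directions in 5 of the 6 contrasts turned when the gene length trend described below was held in the fit. *Cdk4* overlaps exons of *Tspan31* on the opposite strand in 18.8% of its annotated exon bases, and *Tspan31* reached 93.9 CPM.

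*Cdk6* (Entrez Gene 12571; chromosome 5, 3391485 to 3581008, plus strand) encodes the kinase with the more restricted expression, best known in blood cells. The wild-type embryos had 55.9, 49.5, 50.6 and 45.9 CPM. The null embryos had 49.9, 52.4, 59.2 and 60.5 CPM. The Tg-only embryos had 34.5, 39.9, 42.9 and 40.5 CPM, and the null-Tg embryos had 45.7, 53.2, 46.7 and 49.0 CPM. The 4 Tg-only embryos were thus the 4 lowest of all 16, while the null-Tg embryos overlapped both non-transgenic genotypes. The counts behind these values were between 669 and 2232 per embryo.

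*Cdk6* was 22.0% lower in Tg-only than in wild-type embryos. The log2 difference was -0.36 (SE 0.0807), with a 95% confidence interval from -0.53 to -0.19, edgeR FDR = 0.101 and an unadjusted p of 0.000377. In null-Tg embryos it was 23.8% higher than in Tg-only embryos, a log2 difference of 0.31 (SE 0.0882) with an interval from 0.12 to 0.49 and edgeR FDR = 0.0656. DESeq2 called both differences, with adjusted p = 0.00469 and 0.0149, and limma-voom called neither, with adjusted p = 0.1005 and 0.0576. Without wild-type replicate 4, edgeR called both, with FDR = 0.0366 and 0.0258. Without Tg-only replicate 1 it called neither, at -0.26 (edgeR FDR = 0.289) and 0.20 (edgeR FDR = 0.304). Between null-Tg and wild-type embryos the log2 difference of *Cdk6* was -0.05 with an interval from -0.23 to 0.13 (edgeR FDR = 0.862). The difference between the effect of *Kat6a* loss with and without the transgene was 0.17 on the log2 scale, with an interval from -0.07 to 0.42 (edgeR FDR = 0.502). Within litter 2597 the log2 difference of Tg-only from wild-type embryos was -0.37, and within litter 2598 it was -0.18.

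*Cdk6*, with a listed length of 11525 bases, is longer than 98.4% of the tested genes, and long genes as a class differed between libraries. Over the 989 tested genes longer than 8000 bases, the median log2 deviation from the mean of all embryos was -0.32 in Tg-only replicate 1 and between -0.07 and -0.02 in the other 3 embryos of that genotype. In the other 12 embryos it was between -0.02 and 0.15. *Cdk6* log2 CPM followed this deviation with Pearson's r = 0.852 over the 16 embryos, a description of libraries that both quantities share. With the length trend of each library removed, *Cdk6* ranged from 42.0 to 45.7 CPM in Tg-only, 46.3 to 52.0 CPM in wild-type, 49.9 to 53.4 CPM in null and 44.8 to 53.0 CPM in null-Tg embryos. Tg-only and wild-type embryos still did not overlap, a separation that has no background here. The log2 difference of Tg-only from wild-type embryos then was -0.13 (edgeR FDR = 0.371). Between the transgenic genotypes it was 0.06 (edgeR FDR = 0.679). The trend was fitted in each library without regard to genotype, so its removal can also take away a difference between genotypes. The difference of null-Tg from null embryos, -0.18 with edgeR FDR = 0.187 as counted, became -0.16 with edgeR FDR = 0.0477. With the length trend removed *Ccnd2* ranged from 748 to 804 CPM in non-transgenic embryos and from 603 to 692 CPM in transgenic embryos.

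**Figure D3:**
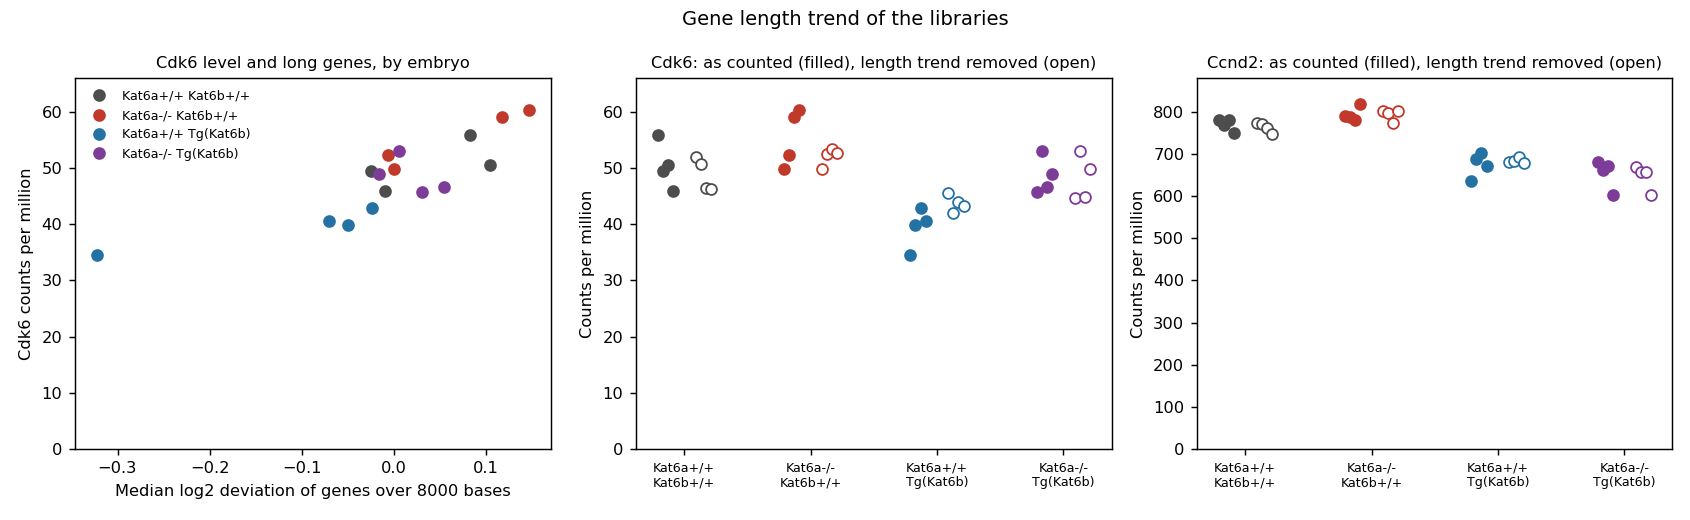
Left, *Cdk6* CPM against the median log2 deviation of genes longer than 8000 bases, 1 point per embryo coloured by genotype. Middle and right, CPM of *Cdk6* and *Ccnd2* in each embryo as counted (filled) and with the gene length trend of the library removed (open); Tg-only replicate 1, at a deviation of -0.32, had 34.5 CPM of *Cdk6* as counted and 45.7 CPM after removal.

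Over all 5 genes, 26 differences were tested and edgeR called 0 of them at FDR under 0.05. In null vs. wild-type embryos 0 of 5 were called, where 1.88% of the 15679 tested genes were. In Tg-only vs. wild-type embryos 0 of 4 were called (0.14% of all genes), in null-Tg vs. wild-type embryos 0 of 4 (0.67%), in null-Tg vs. null embryos 0 of 4 (7.14%), in null-Tg vs. Tg-only embryos 0 of 5 (3.41%) and for the interaction 0 of 4 (0.153%). At an unadjusted p under 0.05 edgeR had 2, 2, 1, 1, 1 and 1 in the same order, DESeq2 called the 2 *Cdk6* differences given above, and limma-voom called 0. No share of all genes at that unadjusted p is given, here or for the lists below, so such counts have no background. Genotypes did not overlap for 1 member in null vs. wild-type embryos (7.97% of all genes), 2 in Tg-only (4%) and 2 in null-Tg (7.1%) vs. wild-type embryos, 1 in null-Tg vs. null embryos (15.2%) and 1 in null-Tg vs. Tg-only embryos (10.5%). *Ccnd2* is the member counted between transgenic and non-transgenic groups in each case, which its choice fixed. The others were *Ccnd1* between either genotype with the null allele and wild type, and *Cdk6* between Tg-only embryos and both wild-type and null-Tg embryos. The widest interval reached 0.25 on the log2 scale to either side, for *Cdk6*.

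**Figure D4:**
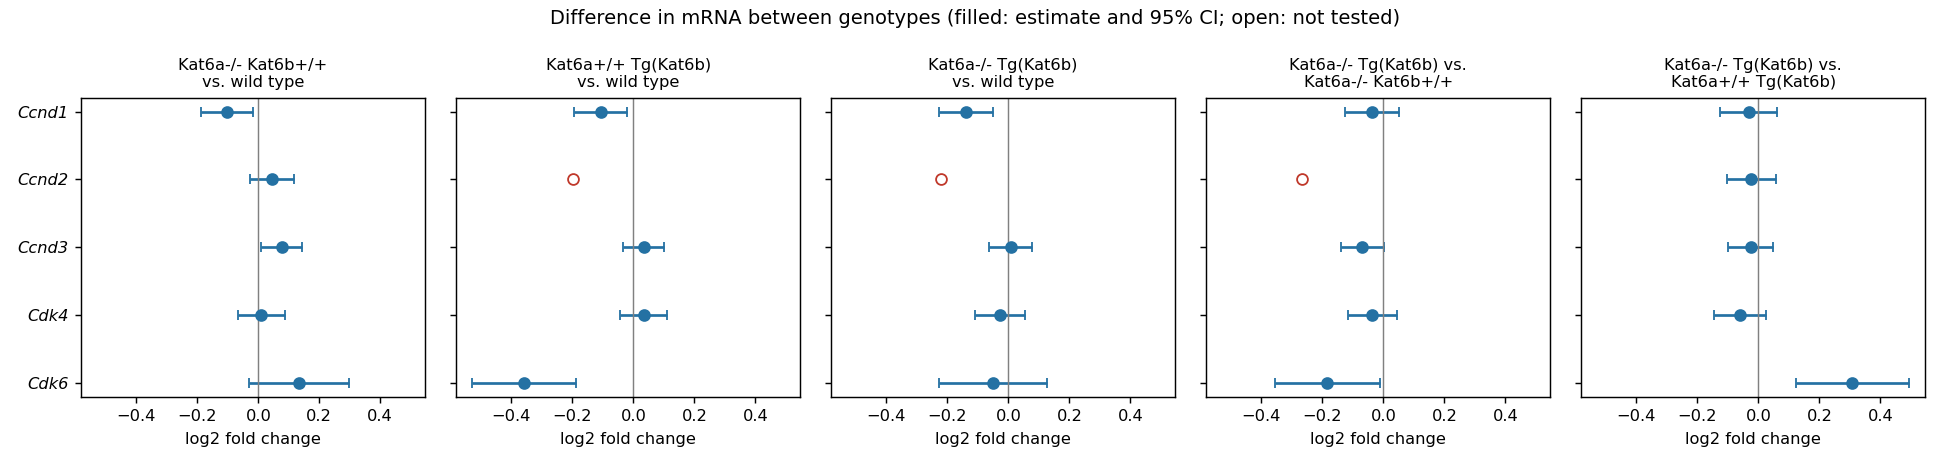
Fitted log2 fold change (x axis) of the 5 genes (y axis) in the 5 comparisons of genotypes, with 95% confidence intervals of the edgeR fit for the tested differences; open circles are the *Ccnd2* differences that chose the genes, between -0.27 and -0.20, which carry no interval. The widest intervals were those of *Cdk6*, whose difference in Tg-only embryos spanned from -0.53 to -0.19.

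Levels of the members rose and fell together only loosely across embryos. Pearson's r of log2 CPM over the 16 embryos was 0.635 for *Ccnd2* and *Cdk6* and 0.540 for *Ccnd1* and *Ccnd2*, and between -0.285 and 0.239 for the other 8 combinations. These values describe libraries that share genotype and gene length trend. Among 10565 genes of at least moderate level, those most like *Ccnd2* were *Gse1* (r = 0.934), *Mib1* (r = 0.900), *Nrip1* (r = 0.898), *Tcim* (r = 0.898) and *Ppp1r10* (r = 0.869). *Mib1* encodes a ubiquitin ligase that activates Notch ligands, and its means were 231, 248, 203 and 209 CPM in wild-type, null, Tg-only and null-Tg embryos. *Nrip1*, a corepressor of nuclear receptors, followed the same order at 109, 122, 87.1 and 93.5 CPM. The likeness to *Ccnd2* chose these genes, so that order is no separate finding. *Mib1* and *Nrip1* are long, with 10154 and 8046 bases, longer than 97.3% and 93.8% of tested genes. *Gse1* has 6953 bases and *Ppp1r10* has 4750, longer than 90.0% and 74.9%. *Tcim* is short, with 1775 bases, longer than only 21.4%. The genes most like *Cdk6* were *Vcan* (r = 0.961), a matrix proteoglycan, and *Plec* (r = 0.959), a cytoskeletal linker, with listed lengths of 14689 and 17515 bases, longer than 99.5% and 99.8% of tested genes. *Atp2c1* and *Tnk2* were most like *Ccnd1* (r = 0.824 and 0.819), *Stat6* and *Eri3* most like *Ccnd3* (r = 0.817 and 0.810), and *Rbm17* and *Eef1b2* most like *Cdk4* (r = 0.925 and 0.924).

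The genes beside *Ccnd2* were also measured. Within 500000 bases on either side lie 8 tested genes, *Tigar*, *D6Wsu163e*, *Rad51ap1*, *Ndufa9*, *Parp11*, *Kcna6*, *Cracr2a* and *Kcna1*. None passed the edgeR threshold in any of the 6 contrasts. *Tigar*, the nearest at 15580 bases, ranged from 20.7 to 24.9 CPM without and 17.6 to 22.5 CPM with the transgene, so these overlapped. Its log2 difference in null-Tg vs. null embryos was -0.15 (edgeR FDR = 0.294). *D6Wsu163e* in the same comparison was at -0.25 (edgeR FDR = 0.0541), close in size to the -0.27 of *Ccnd2*. From wild type *D6Wsu163e* differed less, by -0.06 in Tg-only (edgeR FDR = 0.834) and -0.12 in null-Tg embryos (edgeR FDR = 0.584). *Ccnd2* was at -0.20 and -0.22 in those 2 comparisons. No test compared *Ccnd2* with its neighbours. The antisense RNA gene *9330179D12Rik*, which overlaps 7.97% of the annotated exon bases of *Ccnd2*, was counted at no more than 0.719 CPM. The nearest tested neighbours of the other members, *Bc1* and *Tpcn2* for *Ccnd1*, *Taf8* and *Med20* for *Ccnd3*, *Cyp27b1* and *A730063M14Rik* for *Cdk4*, and *Gm15772* and *Fam133b* for *Cdk6*, also had no difference past the threshold.

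The other genes of the pathway were followed through 10 further lists with 104 genes, of which 103 were tested (*Cdkn2a* was too low). In null vs. wild-type embryos 2 fell and 0 rose. In Tg-only vs. wild-type embryos 0 passed by edgeR, with 11 at an unadjusted p under 0.05, 3 called by DESeq2 and 0 by limma-voom. In null-Tg vs. wild-type embryos 1 fell, in null-Tg vs. null embryos 6 rose and 6 fell, and in null-Tg vs. Tg-only embryos 1 rose and 2 fell. The shares called, 1.94%, 0%, 0.971%, 11.7% and 2.91%, stood beside 1.88%, 0.14%, 0.67%, 7.14% and 3.41% of all tested genes. The median log2 difference of the lists lay between -0.03 and 0.02 in each comparison.

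Upstream of the D-type cyclins, *Mycn*, the Myc family member of embryonic progenitors, fell from 166 ± 6.21 CPM in wild-type to 141 ± 18.8 CPM in null embryos, a log2 difference of -0.26 (SE 0.0426, edgeR FDR = 0.00192). It was higher in null-Tg than in null embryos by 0.17 (edgeR FDR = 0.0248) and lower than in Tg-only embryos by a difference of -0.19 (edgeR FDR = 0.0278). *Ccnd2* and *Cdk4*, known Myc targets, had log2 differences of 0.046 and 0.0097 in null vs. wild-type embryos, where *Mycn* fell. A link between *Mycn* and the members was not tested. Among the other known activators of D-type cyclin genes, *Lef1*, a Wnt effector, rose (0.21, edgeR FDR = 0.0439) and *Jun*, an AP-1 subunit, fell (-0.16, edgeR FDR = 0.0193) in null-Tg vs. null embryos. *Gli1*, a Hedgehog effector, was lower in null-Tg than in Tg-only embryos (-0.22, edgeR FDR = 0.0287). Of the wider Myc network genes, which are not all activators, *Mxi1* rose (0.21, edgeR FDR = 0.0402) and *Mxd3* fell (-0.33, edgeR FDR = 0.0410) in null-Tg vs. null embryos.

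Downstream, 0 of the 3 pocket protein genes (*Rb1*, *Rbl1* and *Rbl2*) passed in any of the 5 comparisons by edgeR, DESeq2 or limma-voom, and in each at most 1 had an unadjusted edgeR p under 0.05. *E2f3*, an activator E2F, fell from 116 ± 5.07 CPM in wild-type to 103 ± 3.30 CPM in null embryos (log2 difference -0.17, SE 0.0406, edgeR FDR = 0.0350) and was higher in null-Tg than in null embryos (0.14, edgeR FDR = 0.0496). *E2f8*, a repressor E2F, rose in the same comparison (0.20, edgeR FDR = 0.0191). Of the CDK inhibitors, *Cdkn1c*, encoding p57, was lower in null-Tg embryos, at 279 ± 32.3 CPM, than in wild-type embryos, at 327 ± 15.6 CPM (log2 difference -0.18, edgeR FDR = 0.0444), and than in null embryos, at 329 ± 16.9 CPM (-0.20, edgeR FDR = 0.00577). The S phase and mitotic cyclins moved by small amounts and in both directions in null-Tg vs. null embryos. *Ccna2* rose (0.12, edgeR FDR = 0.0167), while *Ccnb2* (-0.14, edgeR FDR = 0.0449) and the phosphatase gene *Cdc25b* (-0.18, edgeR FDR = 0.0242) fell. Of 26 E2F target genes of DNA replication, *Pcna* fell in that comparison (-0.16, edgeR FDR = 0.0466) and the polymerase gene *Pole* was higher in null-Tg than in Tg-only embryos (0.26, edgeR FDR = 0.0309). By edgeR 0 of the 3 CDK-activating kinase genes passed in any comparison, none of them at an unadjusted p under 0.05, and DESeq2 and limma-voom also called 0. By edgeR 0 of the 8 genes of CDK4 and CDK6 folding and D-type cyclin turnover and 0 of the 16 mitosis genes passed in any comparison. At an unadjusted p under 0.05 these lists had at most 4 and 7 genes in a comparison, and DESeq2 called at most 1 of each. In a comparison limma-voom called at most 1 gene of the folding and turnover list and 0 of the mitosis list. The number of list genes called in any comparison was 14, and 5 with no surrogate variable, 6 with sex as covariate. It was 3 to 9 without any 1 of wild-type replicate 3, the 4 null embryos and null-Tg replicates 2, 3 and 4.

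Cell type markers were summed in each embryo. The 8 neural progenitor markers summed to between 1150 and 1242 CPM in wild-type, 1153 and 1264 CPM in null, 1157 and 1285 CPM in Tg-only and 1029 and 1187 CPM in null-Tg embryos. The 10 paraxial mesoderm markers ranged from 288 to 332, 274 to 292, 312 to 327 and 274 to 281 CPM in the same order. The 7 heart muscle markers ranged from 954 to 1019, 873 to 1143, 672 to 1118 and 999 to 1113 CPM. The 6 primitive erythroid markers ranged from 2979 to 4700, 2505 to 4772, 4100 to 5132 and 3201 to 3890 CPM. None of these sums separated the 8 transgenic from the 8 other embryos, nor did those of endothelial markers (318 to 338, 335 to 354, 297 to 327 and 328 to 366 CPM), macrophage markers (2.75 to 7.99, 7.52 to 16.7, 2.77 to 4.22 and 4.40 to 8.62 CPM), visceral endoderm and yolk sac markers (12.5 to 51.9, 6.08 to 13.9, 3.38 to 44.7 and 34.3 to 48.3 CPM) or trophoblast markers (1.96 to 2.38, 1.60 to 1.88, 1.40 to 2.69 and 2.22 to 2.72 CPM). The trophoblast gene *Tpbpa* was at 0 in all embryos and *Prl3d1* at no more than 0.0873 CPM. Single markers did change. By edgeR, in null, Tg-only and null-Tg vs. wild-type, null-Tg vs. null and null-Tg vs. Tg-only embryos, 0, 1, 0, 1 and 2 of 8 neural progenitor markers, 2, 0, 2, 1 and 3 of 10 paraxial mesoderm markers, 3, 0, 0, 1 and 2 of 4 tested macrophage markers and 0, 0, 0, 1 and 2 of 5 endothelial markers passed the threshold. Of all tested genes, 1.88%, 0.14%, 0.67%, 7.14% and 3.41% passed in the same order. Members of a list did not all lean the same way. Of the neural progenitor markers, *Sox2* was between 175 and 195 CPM in Tg-only and 162 and 172 CPM in wild-type embryos. *Nes* was between 367 and 412 and between 391.8 and 487 CPM, so its ranges overlapped. These 2 genes were chosen after their values were seen, and only *Nes* had both ends of its range lower in Tg-only embryos. *Sox3* was between 83.6 and 97.2 CPM in Tg-only and 84.6 and 91.9 CPM in wild-type embryos, a lower and a higher end. *Sox1*, *Pax6*, *Hes5*, *Fabp7* and *Msi1* had both ends of their range higher in Tg-only than in wild-type embryos, as *Sox2* did. The part of cell composition in the member differences was not tested.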

How the data were processed

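TruSeq RNA libraries were made from 16 embryos at E9.5. The authors aligned paired-end reads with Rsubread to mm39, and the submitters' processing notes name featureCounts. The deposited values are counts of reads per gene, not normalized, with gene lengths; annotation release, strand setting and treatment of shared reads are not given in the sources used here. Genotype, sex and litter came from the labels.

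Genes were filtered with filterByExpr (minimum count 10, minimum total 15), which left 15679. edgeR 4.0.16 in R 4.3.3 fitted quasi-likelihood models (robust) to the 16 embryos together, with TMM factors (0.985 to 1.02) and 2 surrogate variables (sva 3.50.0, genotype protected). FDR is the Benjamini-Hochberg adjusted p over all tested genes, with a threshold of 0.05. The smallest library, a wild-type embryo, had 14407277 counts. Each sample was a separate embryo and no libraries were duplicates, but some embryos of a genotype were littermates. Gene positions and overlaps are from GENCODE M39 of GRCm39 by symbol, promoters from RefSeq's table, where 3 of the 5 members matched.

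The members and gene lists were chosen with earlier results of these data known. Named genes were the members, *Kat6a* and *Kat6b*, list genes past the threshold in any pairwise contrast, the 5 genes most like *Ccnd2* and 2 most like each other member by Pearson's r among genes with average log2 CPM of at least 3, and genes overlapping or beside a member. *Rb1*, *Rbl1*, *Rbl2*, the neural progenitor markers and the trophoblast genes were named besides. Alternatives were no surrogate variable, sex as covariate, DESeq2 size factors, DESeq2 1.42.0, limma-voom (limma 3.58.1), no filter, replicate or litter block, the 2 genotypes compared alone and each embryo left out. An offset for the trend of log2 CPM with gene length in each library was added after the data had been seen. Only the edgeR fit without surrogate variables was tried on simulated counts, for null vs. wild-type embryos and changes larger than any tested member difference. The other fits and smaller changes were not tested in this way.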

Additional observations from a re-analysis of the deposited data

Results flagged for a closer look

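*Cdk4* in wild-type replicate 1 was at 862.1 CPM, apart from the other 3 wild-type embryos, which lay between 812 and 817 CPM. The gap was 0.900 of the range of the group, above Dixon's critical value for 4 embryos. It was the 1 such value among 20 groups checked (5 genes in 4 genotypes), and chance gives about 1 in 20. With the gene length trend removed, the same embryo was at 857 CPM.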

How the results depend on the processing

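In 18 refits the direction of a member's tested log2 difference turned, and in 7 it newly passed the threshold. No surrogate variable, sex as covariate and DESeq2 each raised the members called in null-Tg vs. Tg-only embryos from 0 to 1, DESeq2 did so in Tg-only vs. wild-type embryos and the length offsets in null-Tg vs. null embryos, in each case through *Cdk6*. Leaving out 1 embryo gave 0 to 1 in the first and second of these, with 1 only without wild-type replicate 4, and 3 to 17 list genes called, against 14. List genes called were 5 with no surrogate variable, 6 with sex as covariate and 8 with only the 2 genotypes compared. The list count fell to 3 to 9 without wild-type replicate 3, any null embryo, or null-Tg replicate 2, 3 or 4, and was 20 with DESeq2. Over all genes, edgeR called 295, 22, 105, 1119 and 535 in null, Tg-only and null-Tg vs. wild-type, null-Tg vs. null and null-Tg vs. Tg-only embryos, against 95, 5, 72, 614 and 402 with no surrogate variable, 416, 219, 244, 1315 and 883 with DESeq2 and 444, 38, 211, 1282 and 280 with length offsets. The litter block, run only for null and Tg-only vs. wild-type embryos, called 18 and 1. The fits with only the 2 genotypes compared called 85, 2, 116, 1141 and 265 in the order above. The cause was not tested.

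With length offsets, *Cdk4* went to 0.025 (interaction), 0.029 (null-Tg vs. null), 0.0087 (vs. Tg-only), 0.012 (vs. wild type) and, for null vs. wild type, -0.016, where the litter block gave -0.0077. *Ccnd3* between the transgenic genotypes went to 0.013 and the *Cdk6* interaction from 0.175 to -0.023, while the untested *Ccnd2* interaction moved from -0.069 to -0.14. Leaving out 1 embryo turned *Ccnd2* between the transgenic genotypes (range -0.073 to 0.0030), *Ccnd3* (-0.0088 to 0.026), *Cdk4* (-0.053 to 0.0021) and *Cdk6* (-0.089 to 0.017) in null-Tg vs. wild type, and *Cdk4* in null (-0.018 to 0.032) and Tg-only (-0.00016 to 0.061) vs. wild type. Same-numbered embryos of different genotypes correlated at -0.255 to 0.215, so the numbers do not pair them. The replicate block called 0 members and 12 list genes and turned no member's direction, with *Cdk6* at -0.36 in Tg-only vs. wild type. Without Tg-only replicate 1 the *Cdk6* interaction was 0.072, without null-Tg replicate 1 its null-Tg vs. null difference was -0.12, and its null vs. wild-type difference was 0.084 without wild-type replicate 4 and 0.067 with the litter block. *Cdk6* had the fewest counts, with 669 in 1 embryo.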
